A study of Homo sapiens with 6 samples.

Results

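The 43 genes described here carry cells into mitosis, through it and out of it: CDK1 and its cyclins, the phosphatases and kinases that switch CDK1 on and off, the Polo and Aurora A kinases, the transcription factors FOXM1 and B-MYB with the MuvB subunits they bind, the anaphase-promoting complex activators and enzymes, and the proteins of the spindle, the cleavage furrow and the midbody. They were listed by their role in mitosis, with earlier results of these data known, and taken by symbol. All 43 were found among the 61541 gene IDs of the deposited table. They were measured by RNA sequencing in 6 libraries. The 3 shRNF26 libraries came from A498 cells with a short hairpin RNA against RNF26, an E3 ubiquitin ligase of the endoplasmic reticulum membrane, and the 3 shcontrol libraries came from A498 cells with a control hairpin. All 6 were grown in RPMI-1640 medium with 10% fetal bovine serum and received their hairpin in a treatment labelled only "transfection infection". No source used here gives the hairpin sequences, their number, the time after delivery or any synchronisation of the cells. Nor do the labels tell whether replicates came from different cultures. The p-values therefore describe spread among these 6 libraries alone, and that spread may be technical.

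A498 is a line derived from a human clear cell renal carcinoma, and the labels' identity was set against marker genes. Of 12 renal and clear cell carcinoma markers 10 averaged below 1 CPM, SLC17A3 had no count in any library, and PAX8 had 2.13 ± 0.270 CPM in shRNF26 libraries and 2.91 ± 0.358 CPM in shcontrol libraries (mean ± SD, n = 3 each), so defining renal markers were absent or near absent. All 10 squamous epithelium markers were above 1 CPM, with a sum of 1571 to 1647 CPM in shRNF26 libraries and 2105 to 2245 CPM in shcontrol libraries. Nearly all of that sum came from KRT5, KRT6A, KRT17, SFN and TP63. KRT14, IVL and SPRR1B were low, near the PAX8 level, at 3.10, 2.98 and 2.52 CPM in shRNF26 libraries and 4.05, 2.97 and 5.15 CPM in shcontrol libraries. The renal sum was 192 to 212 CPM in shRNF26 libraries and 171 to 182 CPM in shcontrol libraries, nearly all of it EPAS1. Of 6 fibroblast markers 5 averaged below 1 CPM, with COL3A1 at 0 throughout, and their sum, nearly all COL1A1, was 82.2 to 88.9 CPM in shRNF26 libraries and 55.4 to 66.5 CPM in shcontrol libraries. Of 5 blood cell markers 4 averaged below 1 CPM, with HBB at 0 throughout, and their sum was 1.58 to 1.80 CPM in shRNF26 libraries and 1.61 to 1.95 CPM in shcontrol libraries. The renal, squamous and fibroblast sums moved with the groups, and their part in the results below was not tested. Each library held 16682871 to 18021718 gene counts. RNF26 itself had 1216, 1274 and 1175 counts in shRNF26 libraries, against 35331, 31901 and 31928 counts in shcontrol libraries. That is 68.9 ± 0.484 CPM in shRNF26 libraries and 1979 ± 49.8 CPM in shcontrol libraries. The shcontrol level was high, above the 758 CPM that TOP2A, the mitotic gene with the highest counts, averaged there. No library came from untreated cells, so whether this RNF26 level is usual for these cells was not tested. All differences below are relative to these shcontrol libraries.

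In a dividing cell, CDK1 bound to cyclin A or cyclin B drives entry into mitosis. WEE1 and PKMYT1 hold it inactive by phosphorylation and the CDC25 phosphatases release it. Most mitotic genes are transcribed late in the cycle. In resting cells and in G1 the DREAM complex, in which MuvB sits with a pocket protein and E2F4, represses them, and in S and G2 phase the same MuvB core binds B-MYB and then FOXM1 to activate them. Both forms reach promoters through a short element, the cell cycle genes homology region (CHR), often beside CCAAT boxes bound by NF-Y. Cells leave mitosis when the anaphase-promoting complex, with CDC20 and then FZR1, marks cyclin B and securin for destruction.

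Promoters were searched for such elements. As the genes were listed by their role in mitosis, a high share of matches describes that class, and its part in the changes was not tested. RefSeq windows running from 250 bases before to 50 after each annotated start (GRCh38.p14) were found for 36 of the 43 genes. None was matched for WEE1, PKMYT1, AURKA, TPX2, FOXM1, UBE2C and RACGAP1. The 250 bases before the start are shown for the gene with the largest rise, HMMR at chr5:163460382-163460631 (plus strand), and for the genes with the 3 largest falls, CDC25A at chr3:48188418-48188667 (minus strand), UBE2S at chr19:55407789-55408038 (minus strand) and LIN52 at chr14:74084706-74084955 (plus strand). Sequences run 5′ to 3′ on the gene's strand up to the base before the start. Capitals mark every match, on either strand, to TTTGAA or TTTAAA (CHR type), CCAAT (read as ATTGG on the other strand) or TAACNG (MYB type).
HMMR: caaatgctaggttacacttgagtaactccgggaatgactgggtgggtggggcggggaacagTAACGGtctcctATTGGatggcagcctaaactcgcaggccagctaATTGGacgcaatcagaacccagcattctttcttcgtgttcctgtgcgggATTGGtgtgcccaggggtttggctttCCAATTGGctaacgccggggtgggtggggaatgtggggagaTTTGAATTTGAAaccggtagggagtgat
CDC25A: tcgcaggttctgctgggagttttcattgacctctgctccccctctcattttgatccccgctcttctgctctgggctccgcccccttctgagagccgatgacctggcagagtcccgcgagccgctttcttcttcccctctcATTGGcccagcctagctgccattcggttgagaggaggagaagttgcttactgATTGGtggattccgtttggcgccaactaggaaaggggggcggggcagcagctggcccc
UBE2S: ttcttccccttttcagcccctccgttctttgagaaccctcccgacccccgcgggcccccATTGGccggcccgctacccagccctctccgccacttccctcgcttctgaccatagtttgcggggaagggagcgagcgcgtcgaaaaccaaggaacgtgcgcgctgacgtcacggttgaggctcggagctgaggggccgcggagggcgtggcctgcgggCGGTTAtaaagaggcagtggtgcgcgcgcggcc
LIN52: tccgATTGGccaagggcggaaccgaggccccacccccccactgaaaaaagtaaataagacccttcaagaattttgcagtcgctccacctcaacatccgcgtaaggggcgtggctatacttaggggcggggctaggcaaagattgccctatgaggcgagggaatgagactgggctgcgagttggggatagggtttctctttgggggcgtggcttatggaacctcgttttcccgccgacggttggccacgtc
The HMMR window held a pair of adjoining TTTGAA matches, with first bases at -28 and -22 from the start, 5 CCAAT matches, of which those at -69 and -66 overlap, and 1 TAACNG match at -189. CDC25A held CCAAT matches alone, at -110 and -58. UBE2S held 1 CCAAT match and 1 TAACNG match, and LIN52 held 1 CCAAT match. No TTTGAA or TTTAAA lay in the windows of these 3 genes that fell.

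The 60 bases before the start are shown for 5 genes that rose, as examples of a CHR-type match close to the start, and for PRC1, which did not pass the test, with a match closer still. PRC1 had few counts (log2 fold change -0.07, SE 0.21), so its change could not be judged. These 6 were chosen after the positions were seen, and such matches were not limited to genes that rose. CCNB1 lies at chr5:69167090-69167149 (plus strand), CCNB2 at chr15:59105086-59105145 (plus strand), PLK1 at chr16:23678829-23678888 (plus strand), MKI67 at chr10:128126424-128126483 (minus strand), ESPL1 at chr12:53268239-53268298 (plus strand) and PRC1 at chr15:90994536-90994595 (minus strand). Capitals have the same meaning.
CCNB1: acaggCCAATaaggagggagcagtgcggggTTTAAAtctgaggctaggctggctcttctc
CCNB2: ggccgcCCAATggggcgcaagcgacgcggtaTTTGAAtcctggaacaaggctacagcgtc
PLK1: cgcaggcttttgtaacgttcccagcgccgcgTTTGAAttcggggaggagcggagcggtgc
MKI67: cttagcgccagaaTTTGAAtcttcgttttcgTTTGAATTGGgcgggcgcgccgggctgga
ESPL1: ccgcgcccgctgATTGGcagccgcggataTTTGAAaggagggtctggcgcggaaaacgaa
PRC1: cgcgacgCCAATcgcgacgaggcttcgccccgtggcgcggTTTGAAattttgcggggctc
The first base of the CHR-type match stood at -30 in CCNB1, -29 in CCNB2, PLK1 and MKI67, -31 in ESPL1 and -20 in PRC1. CCNB1 had TTTAAA and the others TTTGAA. CKS2, with TTTGAA at -29 on the opposite strand, and FBXO5, with TTTAAA at -31, did not pass the test. MKI67 had another TTTGAA at -47, and its match at -29 overlaps a CCAAT match on the opposite strand.

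Over the 36 genes with a window, 26 held TTTGAA on either strand (72.2%), against 13.4% of the 10761 tested genes with a window. TTTAAA, which reads the same on both strands, was held by 9 (against 10.7% of tested genes), CCAAT by 29 (80.6%, against 42.9%) and TAACNG by 12 (33.3%, against 22.1%). Across all 35116 windows of the table, whatever the gene, 15.2% held TTTGAA, 12.2% TTTAAA, 34.6% CCAAT and 20.8% TAACNG. A gene with several annotated starts has several windows and so more chances of a match. TTTGAA or TTTAAA was found in 20 of the 22 genes that rose, in 0 of the 4 that fell and in 9 of the 10 that did not pass. Those 10 include NUSAP1, LIN37, PRC1 and ARHGAP11A, which had few counts. Of the 4 falls, those of CDC25A and UBE2S held under all 15 alternative settings and those of LIN52 and MYBL2 did not. Over all tested genes with a window, either match was held by 24.3% of those that rose, 20.2% of those that fell and 19.9% of the rest. With a first base between -40 and -11, a range chosen after the positions were seen, such a match was held by 16 of the 36 genes (44.4%), against 3.01% of tested genes. They were 12 of the 22 that rose, 0 of the 4 that fell and 4 of the 10 that did not pass. Over all tested genes, 4.51% of those that rose, 2.96% of those that fell and 2.5% of the rest held one in this range. These are matches of letters and do not show that a factor binds there.

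**Figure D1:**
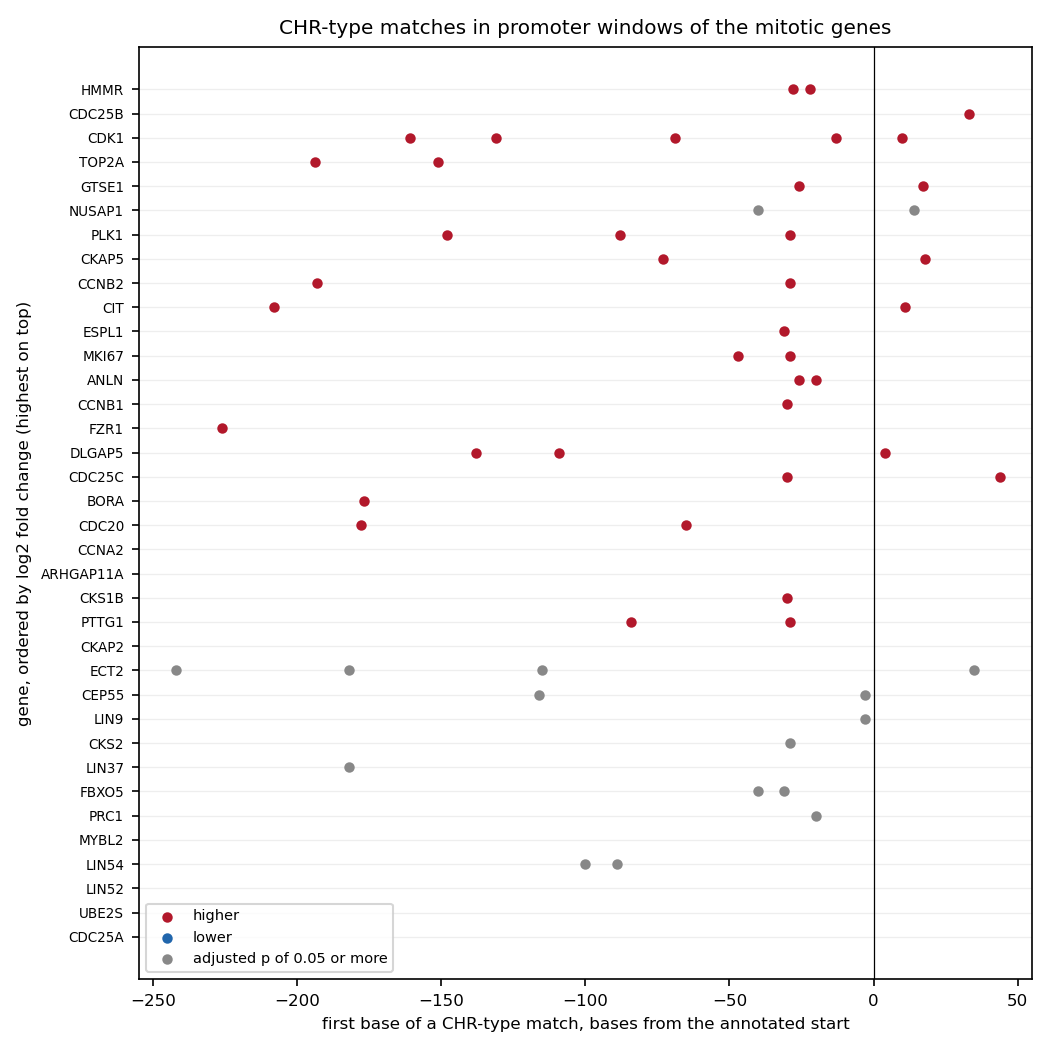
Positions of CHR-type matches (TTTGAA or TTTAAA, either strand) in the promoter windows of 36 mitotic genes. The x axis gives bases from the annotated start and genes run from the highest log2 fold change at the top to the lowest at the bottom, with red for genes that rose, blue for those that fell and grey for the rest. Points gather just before the start, and CDC25A, UBE2S, LIN52 and MYBL2, which fell, have none, as do CCNA2 and CKAP2, which rose, and ARHGAP11A.

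After RNF26 knockdown most of the mitotic genes were higher, by small amounts. CPM here are counts relative to each library's total, scaled between libraries with TMM factors. All 43 passed the minimum mean of 1 CPM, and 26 rose, 4 fell and 13 did not pass at an adjusted p of 0.05 in the edgeR quasi-likelihood test fitted over 14766 genes. Over all tested genes 18.9% rose and 22.6% fell, 41.4% called in all, so the 60.5% of mitotic genes that rose stood above that background and the 9.3% that fell stood below it. As the genes were chosen with earlier results known, these shares are a description and not a test. The median log2 fold change was 0.22, beside 0.01 for all tested genes. Scaling mattered for the balance of calls: 45.5% of all calls were higher with TMM, 66.3% with total-count scaling (30 of the 43 higher and 2 lower) and 58.3% with upper-quartile scaling (28 higher and 2 lower). The changes were small: none reached 2-fold, and 2 rises (HMMR and CDC25B) and 1 fall (CDC25A) reached 1.5-fold, a size passed upward by 2.86% and downward by 5.99% of tested genes. In 26 genes all 3 shRNF26 libraries were above all 3 shcontrol libraries, and in 5 all were below, against 24.2% and 25.9% of tested genes. Of the calls, 20 of the 26 rises and 2 of the 4 falls held under all 15 alternative settings. In RNA from whole cultures, more cells in G2 and mitosis and more RNA per such cell cannot be told apart.

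Summed over the 43 genes, the level was 6842, 6753 and 6930 CPM in shRNF26 libraries, against 5778, 5866 and 5826 CPM in shcontrol libraries. These CPM are TMM-scaled, and their group means differed 1.17-fold. Without TMM factors, the 43 genes held 0.704 ± 0.00841% of raw gene counts in shRNF26 libraries and 0.562 ± 0.00566% in shcontrol libraries (mean ± SD, n = 3 each). The gap between groups is wider on this raw measure. The libraries of each group lay close together and the groups did not overlap.

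**Figure D2:**
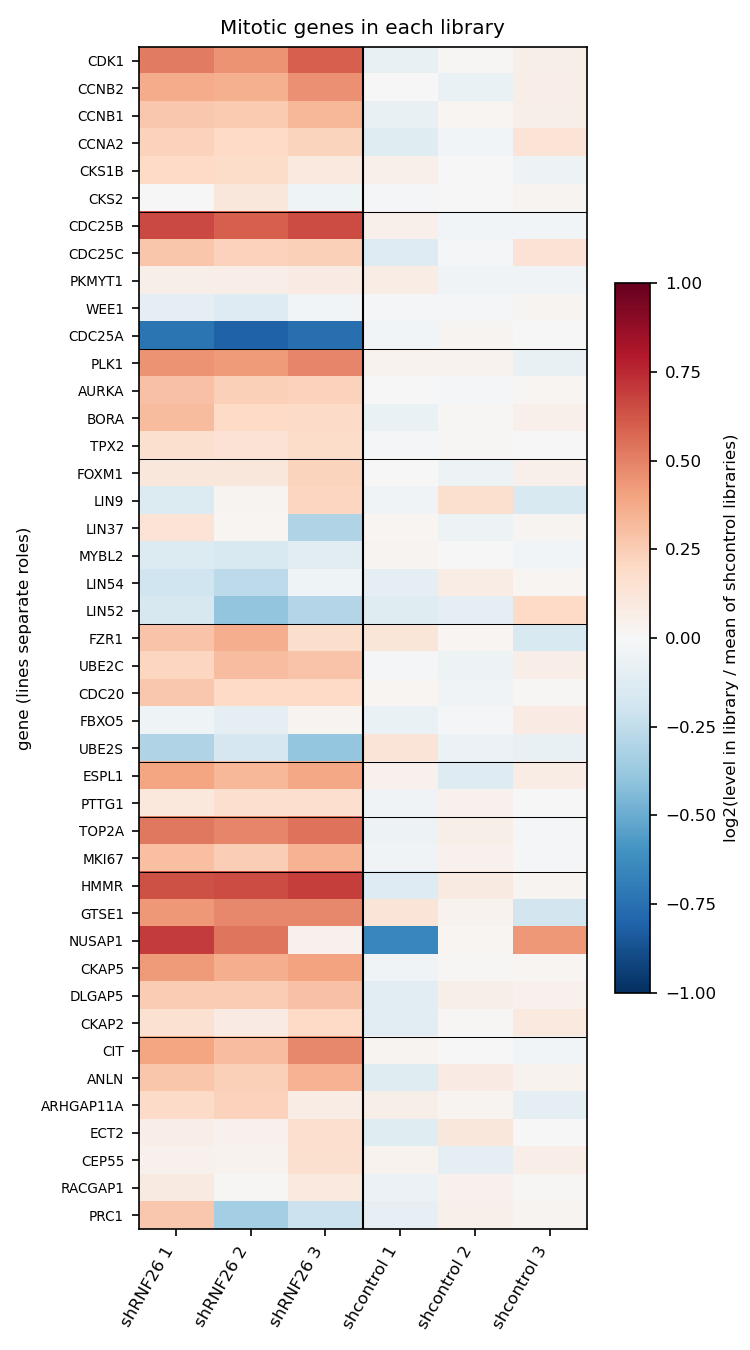
Heat map of 43 mitotic genes in 6 libraries, with the shRNF26 libraries left of the line and the shcontrol libraries right of it. Colour gives the log2 ratio of the TMM-scaled level to the mean of the shcontrol libraries, and horizontal lines separate the roles. Most rows are red in all 3 shRNF26 libraries, CDC25A is blue in all 3, and NUSAP1, LIN37 and PRC1, which have few counts, vary between libraries of one group.

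Among the CDK1 and cyclin genes 5 of 6 rose (83.3%, beside 18.9% of all tested genes). CDK1 (ENSG00000170312), the kinase that triggers mitosis, had 117, 111 and 124 CPM in shRNF26 libraries, against 77.6, 82.2 and 84.9 CPM in shcontrol libraries. The lowest knockdown library was above the highest control library, and CDK1 was 1.44-fold higher (log2 fold change 0.53 with an SE of 0.052, edgeR adjusted p = 1.58e-07). CCNB2 (ENSG00000157456), a B-type cyclin, had 99.0, 98.0 and 105 CPM in shRNF26 libraries and 76.3, 73.1 and 79.9 CPM in shcontrol libraries, 1.32-fold higher. CCNB1 (ENSG00000134057), the main mitotic cyclin, had 154, 154 and 161 CPM in shRNF26 libraries and 121, 129 and 133 CPM in shcontrol libraries, 1.22-fold higher (log2 fold change 0.29, SE 0.046). Neither cyclin B gene overlapped between groups. CCNA2 (ENSG00000145386), the cyclin of S phase and early mitosis, was 1.16-fold higher, with a wide spread in shcontrol libraries (112 ± 1.47 CPM in shRNF26 libraries and 96.2 ± 8.85 CPM in shcontrol libraries). The small CDK-binding subunits differed little. CKS1B was 1.12-fold higher, which no longer passed without shRNF26 replicate 1 (log2 fold change 0.14, edgeR adjusted p = 0.0559), and CKS2 had 0.03 (SE 0.049, edgeR adjusted p = 0.708). CKS1B has processed copies, of which the one with most counts, CKS1BP3, held 0.971% as many as the gene.

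The 3 CDC25 phosphatases, which activate CDK1 and CDK2, went in opposite directions. CDC25A (ENSG00000164045), which also acts at entry into S phase, had 54.7, 52.0 and 54.0 CPM in shRNF26 libraries, against 89.0, 93.0 and 90.9 CPM in shcontrol libraries. The groups were far apart, and CDC25A fell by 0.76 on the log2 scale (SE 0.051, 1.70-fold lower, edgeR adjusted p = 5.23e-10), the largest change of the 43. CDC25B (ENSG00000101224), which starts CDK1 activation at the centrosome, had 325, 312 and 324 CPM in shRNF26 libraries and 213, 203 and 202 CPM in shcontrol libraries. It was 1.55-fold higher (log2 fold change 0.64 with an SE of 0.040, edgeR adjusted p = 2.33e-10), again with no overlap. CDC25C (ENSG00000158402), at a lower level, had 16.9, 16.4 and 16.5 CPM in shRNF26 libraries and 12.7, 13.7 and 15.4 CPM in shcontrol libraries (log2 fold change 0.25 with an SE of 0.096, edgeR adjusted p = 0.044). The CDC25C call was lost without any of shRNF26 replicates 1, 2 and 3 (0.24, 0.26 and 0.26) or shcontrol replicates 1 and 2 (0.18 and 0.24), without a filter on low counts (0.25, edgeR adjusted p = 0.0872) and with the DESeq2 Wald test (0.25, adjusted p = 0.0900). The inhibitory kinases did not pass. WEE1 had 129 ± 4.70 CPM in shRNF26 libraries and 137 ± 2.57 CPM in shcontrol libraries (log2 fold change -0.08, edgeR adjusted p = 0.139), and PKMYT1 had 67.9 ± 0.550 CPM in shRNF26 libraries and 64.7 ± 2.91 CPM in shcontrol libraries (log2 fold change 0.07, edgeR adjusted p = 0.317). With total-count scaling, WEE1 turned to 0.0064 and PKMYT1 passed as higher (0.16).

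All 4 genes of the Polo and Aurora A branch rose (beside 18.9% of all tested genes). PLK1 (ENSG00000166851), the Polo kinase that acts from mitotic entry to cytokinesis, had 127, 125 and 131 CPM in shRNF26 libraries, against 95.4, 95.1 and 88.6 CPM in shcontrol libraries, and was 1.37-fold higher (log2 fold change 0.45 with an SE of 0.047, edgeR adjusted p = 2.70e-07). AURKA (ENSG00000087586), the centrosome and spindle kinase that activates PLK1, had 159, 153 and 152 CPM in shRNF26 libraries and 129, 128 and 131 CPM in shcontrol libraries, 1.19-fold higher. BORA (ENSG00000136122), the cofactor through which AURKA acts on PLK1, had 28.2, 26.1 and 26.0 CPM in shRNF26 libraries and 21.7, 22.8 and 23.5 CPM in shcontrol libraries, 1.18-fold higher. In each of the 3 genes the groups stood apart. The BORA call was lost without shRNF26 replicate 1 (0.20, edgeR adjusted p = 0.0979) or shcontrol replicate 1 (0.20, edgeR adjusted p = 0.0590), and 37.0% of its exon bases overlap DIS3 on the opposite strand in GENCODE 29. TPX2 (ENSG00000088325), which binds AURKA and brings it to spindle microtubules, was 1.12-fold higher (404 ± 5.79 CPM in shRNF26 libraries and 361 ± 2.05 CPM in shcontrol libraries).

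The transcription factors that drive this programme did not move as one. FOXM1 (ENSG00000111206), the forkhead activator of G2 genes, had 133, 133 and 143 CPM in shRNF26 libraries and 123, 119 and 127 CPM in shcontrol libraries, 1.11-fold higher (log2 fold change 0.15 with an SE of 0.047, edgeR adjusted p = 0.0143). This rise was lost without shRNF26 replicate 3 (0.12, edgeR adjusted p = 0.0746) or shcontrol replicate 2 (0.12, edgeR adjusted p = 0.0860). MYBL2 (ENSG00000101057), which encodes B-MYB, had 356, 353 and 363 CPM in shRNF26 libraries, against 398, 391 and 384 CPM in shcontrol libraries. It fell by 0.13 on the log2 scale (SE 0.037, edgeR adjusted p = 0.00786), with no overlap, but did not pass with total-count scaling (-0.04) or upper-quartile scaling (-0.08). LIN52 (ENSG00000205659), the MuvB subunit whose phosphorylation assembles DREAM, had 15.9, 13.5 and 14.5 CPM in shRNF26 libraries and 16.3, 16.6 and 20.3 CPM in shcontrol libraries, with a log2 fold change of -0.28 (SE 0.10, edgeR adjusted p = 0.0388). That call was lost without shRNF26 replicate 2 or 3 (-0.22 and -0.27) or shcontrol replicate 3 (-0.17), and with total-count scaling (-0.19), upper-quartile scaling (-0.22) and DESeq2 (-0.28). The other MuvB subunits did not pass: LIN9 had a log2 fold change of 0.04, LIN37 of -0.04 and the DNA-binding subunit LIN54 of -0.16 (SE 0.078, edgeR adjusted p = 0.0990). LIN54 passed as lower without shRNF26 replicate 3 (-0.23) or shcontrol replicate 1 (-0.22).

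Among the genes that act with the anaphase-promoting complex, both activators rose while its E2 enzymes parted. CDC20 (ENSG00000117399), the activator used in mitosis, had 151, 144 and 144 CPM in shRNF26 libraries and 127, 122 and 126 CPM in shcontrol libraries, 1.17-fold higher (log2 fold change 0.23 with an SE of 0.044, edgeR adjusted p = 0.000398). FZR1 (ENSG00000105325), which takes over in late mitosis and G1, had 148, 157 and 138 CPM in shRNF26 libraries and 133, 124 and 110 CPM in shcontrol libraries, 1.21-fold higher. UBE2C (ENSG00000175063), the E2 that starts ubiquitin chains on the complex's substrates, had 185, 197 and 193 CPM in shRNF26 libraries and 157, 153 and 167 CPM in shcontrol libraries, 1.20-fold higher. UBE2S (ENSG00000108106), the E2 that extends those chains, went the other way, with 336, 369 and 316 CPM in shRNF26 libraries, against 453, 397 and 393 CPM in shcontrol libraries. The UBE2S libraries did not overlap between groups, and it fell by 0.28 on the log2 scale (SE 0.056, 1.22-fold lower, edgeR adjusted p = 0.000434), a call that held under all 15 alternatives, as did the rises of CDC20, FZR1 and UBE2C. FBXO5 (ENSG00000112029), which encodes the inhibitor EMI1, had 81.4 ± 3.60 CPM in shRNF26 libraries and 83.6 ± 4.45 CPM in shcontrol libraries (log2 fold change -0.04, edgeR adjusted p = 0.604), and its sign turned with total-count scaling (0.052) and upper-quartile scaling (0.015). Processed copies of UBE2C and UBE2S in the table held at most 1.44% of the counts of their parent gene.

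Separase and securin both rose. ESPL1 (ENSG00000135476), the protease separase that cuts cohesin at anaphase, had 118, 113 and 117 CPM in shRNF26 libraries and 92.1, 82.1 and 94.4 CPM in shcontrol libraries, 1.29-fold higher (log2 fold change 0.37 with an SE of 0.053, edgeR adjusted p = 1.63e-05). Its inhibitor PTTG1 (ENSG00000164611) had 70.0, 73.2 and 73.1 CPM in shRNF26 libraries and 63.5, 67.0 and 65.1 CPM in shcontrol libraries (log2 fold change 0.15 with an SE of 0.052, edgeR adjusted p = 0.0304). The groups did not overlap in either gene. The PTTG1 call was lost without shRNF26 replicates 2 or 3 (0.13 and 0.14) or shcontrol replicates 1 or 3 (0.12 and 0.14), without a filter on low counts (0.15, edgeR adjusted p = 0.0579) and with DESeq2 (0.15, adjusted p = 0.0504).

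TOP2A (ENSG00000131747), the topoisomerase that untangles sister chromatids, had 1091, 1065 and 1102 CPM in shRNF26 libraries, against 731, 788 and 753 CPM in shcontrol libraries. It had the highest counts of the 43 genes and was 1.43-fold higher (log2 fold change 0.52 with an SE of 0.036, edgeR adjusted p = 8.26e-10). MKI67 (ENSG00000148773), which encodes the Ki-67 protein that coats mitotic chromosomes and is widely used as a marker of cycling cells, had 653, 630 and 674 CPM in shRNF26 libraries and 517, 548 and 527 CPM in shcontrol libraries, 1.23-fold higher (log2 fold change 0.30 with an SE of 0.038, edgeR adjusted p = 3.88e-06). For both genes every shRNF26 library was above every shcontrol library.

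Spindle and microtubule-associated genes held the largest rise. HMMR (ENSG00000072571), a spindle pole protein that also binds hyaluronan, had 57.3, 57.9 and 59.5 CPM in shRNF26 libraries, against 33.8, 39.3 and 37.5 CPM in shcontrol libraries, and was 1.58-fold higher (log2 fold change 0.66 with an SE of 0.063, edgeR adjusted p = 9.12e-08). GTSE1 (ENSG00000075218), a microtubule plus-end protein of G2 and mitosis, had 94.4, 97.5 and 97.2 CPM in shRNF26 libraries and 76.2, 71.7 and 61.4 CPM in shcontrol libraries, 1.38-fold higher. CKAP5 (ENSG00000175216), the microtubule polymerase chTOG, had 359, 342 and 352 CPM in shRNF26 libraries and 260, 269 and 270 CPM in shcontrol libraries, 1.32-fold higher. None of these 3 overlapped between groups. DLGAP5 (ENSG00000126787), which stabilises kinetochore fibres, was 1.20-fold higher. CKAP2 (ENSG00000136108), which stabilises spindle microtubules, was the 1 gene that rose with overlapping libraries (log2 fold change 0.14 with an SE of 0.055, edgeR adjusted p = 0.0427), and its call was lost without shRNF26 replicates 1 or 3 (0.14 and 0.12), without shcontrol replicates 1 or 2 (0.09 and 0.15) and with DESeq2 (0.15, adjusted p = 0.0538). NUSAP1 could not be judged at 26, 24 and 16 counts in shRNF26 libraries and 10, 15 and 20 counts in shcontrol libraries (log2 fold change 0.46, SE 0.34).

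Genes of the central spindle, the RhoA switch and abscission mostly did not pass. CIT (ENSG00000122966), the citron kinase of the midbody, had 126, 119 and 135 CPM in shRNF26 libraries and 98.3, 96.2 and 94.8 CPM in shcontrol libraries, 1.31-fold higher (log2 fold change 0.39 with an SE of 0.050, edgeR adjusted p = 3.56e-06). ANLN (ENSG00000011426), the anillin scaffold of the cleavage furrow, had 262, 255 and 275 CPM in shRNF26 libraries and 199, 228 and 221 CPM in shcontrol libraries, 1.22-fold higher. Both were without overlap, and they were the 2 of 7 that rose (28.6%, beside 18.9% of all tested genes), 0 falling (beside 22.6%). ECT2 (ENSG00000114346), the exchange factor that activates RhoA at the furrow, had 133 ± 6.16 CPM in shRNF26 libraries and 125 ± 10.2 CPM in shcontrol libraries (log2 fold change 0.09, edgeR adjusted p = 0.198). RACGAP1 (ENSG00000161800), the centralspindlin subunit that binds ECT2, had a log2 fold change of 0.07 (SE 0.048) and CEP55, which recruits the abscission machinery to the midbody, 0.08 (SE 0.060). With total-count scaling ECT2 (0.18), RACGAP1 (0.16) and CEP55 (0.17) passed as higher, and with upper-quartile scaling ECT2 (0.15, edgeR adjusted p = 0.0408) and RACGAP1 (0.12, edgeR adjusted p = 0.0487) did. ARHGAP11A (ENSG00000198826), a RhoA GTPase-activating protein, had 92, 98 and 82 counts in shRNF26 libraries and 82, 76 and 70 counts in shcontrol libraries. Its log2 fold change was 0.17 (SE 0.16), with no overlap in CPM between groups. The microtubule bundler PRC1 had 68, 46 and 47 counts in shRNF26 libraries and 52, 54 and 53 counts in shcontrol libraries (log2 fold change -0.07, SE 0.21). At these counts neither gene could be judged.

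**Figure D3:**
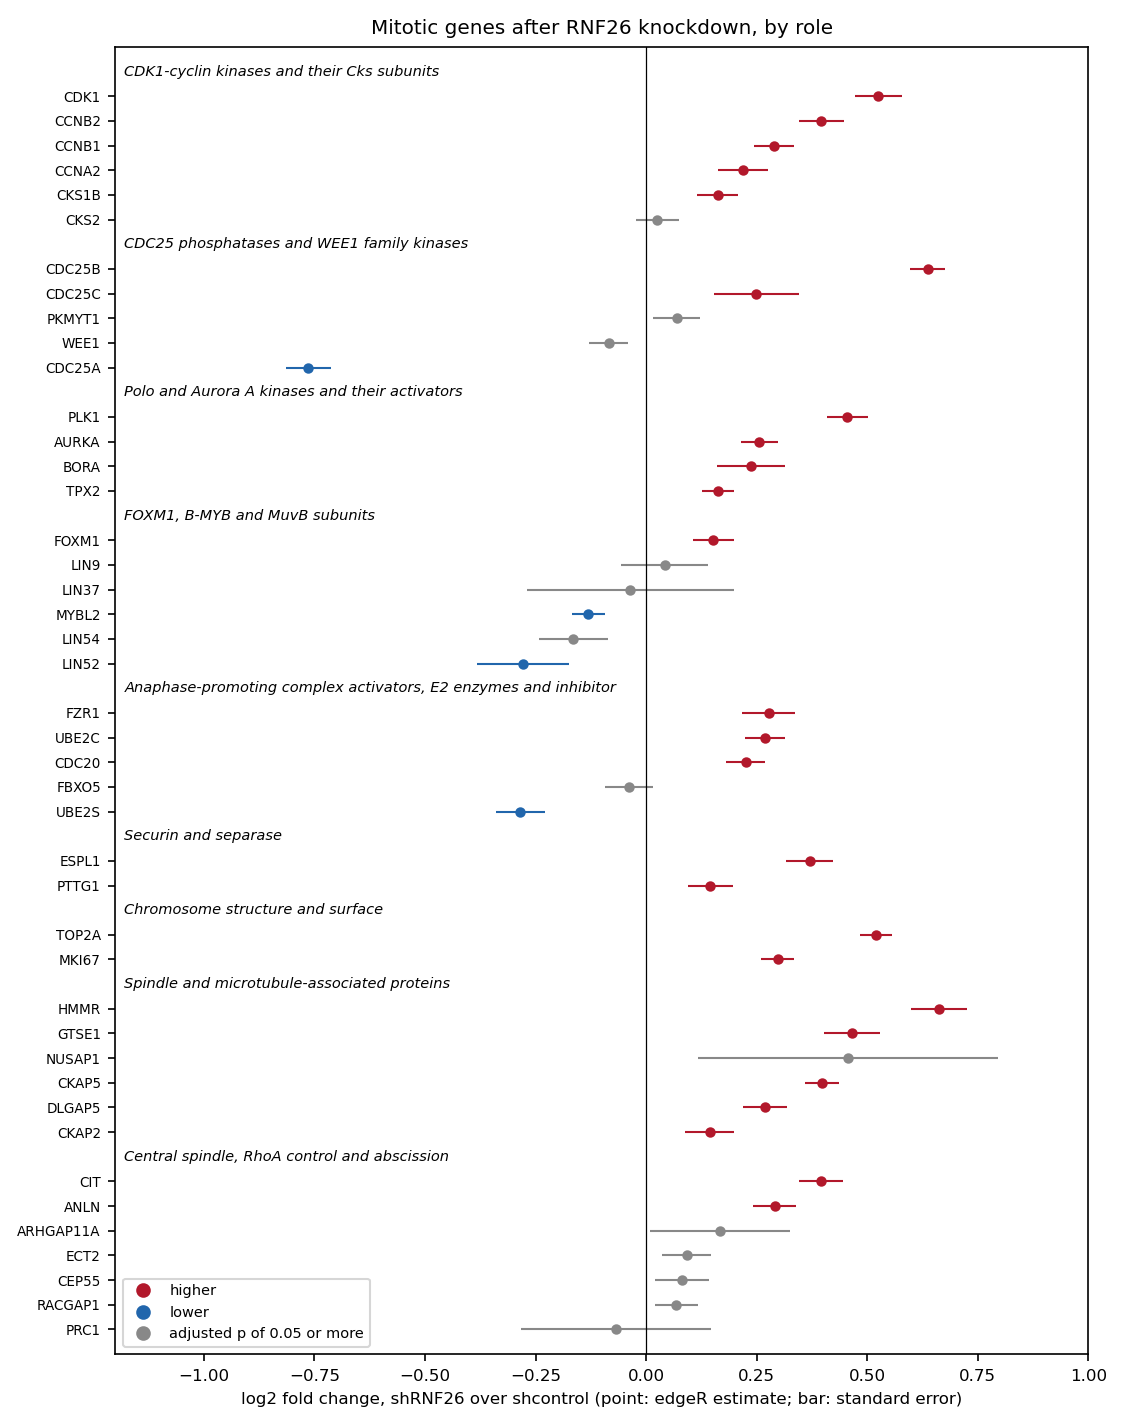
Log2 fold change of each of the 43 genes, shRNF26 over shcontrol, grouped by role. Points are edgeR estimates and bars are standard errors. Red points passed as higher, blue as lower, and grey did not pass at an adjusted p of 0.05. All 4 genes of the Polo and Aurora A branch are red, the MuvB group is mixed, and CDC25A stands apart at -0.76.

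**Figure D4:**
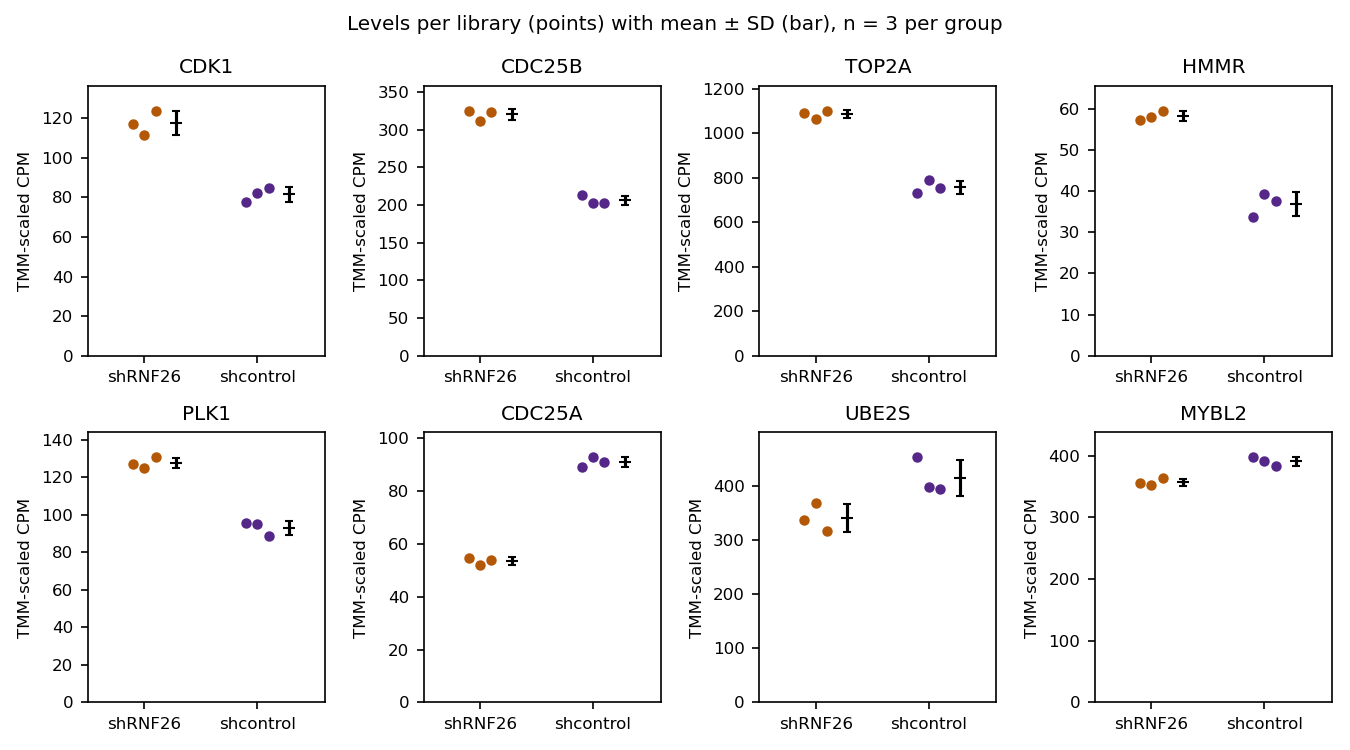
TMM-scaled CPM of 8 genes in every library, with shRNF26 left of shcontrol in each panel, each y axis starting at 0, and the mean and SD of 3 libraries beside the points. CDK1, CDC25B, TOP2A, HMMR and PLK1 are higher in all 3 shRNF26 libraries and CDC25A, UBE2S and MYBL2 are lower, with no overlap in any of the 8.

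Levels between genes were compared per kilobase of annotated exon (GENCODE 29). On that scale CKS2 was highest, at 179 ± 10.1 CPM per kilobase in shRNF26 libraries and 176 ± 2.92 in shcontrol libraries. TOP2A followed in shRNF26 libraries (169 ± 2.96), while in shcontrol libraries it stood lower, at 118 ± 4.51, below UBE2S (149 ± 12.0), MYBL2 (141 ± 2.58) and UBE2C (124 ± 5.38), and UBE2S and MYBL2 there differed by less than the SD of UBE2S. CDC25A stood at 13.0 ± 0.343 CPM per kilobase in shRNF26 libraries and 22.1 ± 0.478 in shcontrol libraries. The lowest 4 in both groups were LIN37, ARHGAP11A, PRC1 and NUSAP1, each below 1 CPM per kilobase. For PRC1, 57.6% of exon bases are shared with the same-strand gene ENSG00000284946, which held 1229 counts over the 6 libraries, against 320 for PRC1. For NUSAP1, 62.2% are shared with the same-strand gene ENSG00000285920, which had no counts, and for LIN37, 26.7% with ENSG00000188223, which also had none. No source used here says how reads shared between genes were counted, so the levels of these 3 genes are uncertain. That of ARHGAP11A is uncertain too, since it has a paralogue, ARHGAP11B, which held 4.6% as many counts. How much sequence ARHGAP11A and ARHGAP11B share was not measured. The part of shared sequence in these low values was not tested. In all, 17 of the 43 genes share exon bases with another gene in GENCODE 29, 15 of them with one on the opposite strand, among them FOXM1 with ITFG2 (15.9% of its exon bases), PKMYT1 with PAQR4 (24.5%) and PLK1 with an antisense gene that held 12 counts (11.6%). The library kit keeps strand, but the strand setting of the counting is unknown, so these counts are uncertain to that extent.

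The other parts of the division machinery were read from 10 lists, described by counts beside the shares of all tested genes given above. All 8 genes of the chromosomal passenger complex and its central spindle partners rose, with a median log2 fold change of 0.22. KIF20A, the kinesin that brings Aurora B to the central spindle, had 90.1 ± 5.90 CPM in shRNF26 libraries and 54.4 ± 1.24 CPM in shcontrol libraries (log2 fold change 0.73, SE 0.057). INCENP, the scaffold of the complex, had a log2 fold change of 0.45 and KIF23, the centralspindlin motor, of 0.25. Of 23 tested kinetochore, spindle checkpoint and condensin genes 17 rose and 2 fell (73.9% and 8.7%, median 0.23). Among them the condensin subunit NCAPD2 had 249 ± 3.60 CPM in shRNF26 libraries and 179 ± 8.26 CPM in shcontrol libraries, and the checkpoint kinase-like protein BUB1B had a log2 fold change of 0.46. The largest change of that list was the fall of MAD1L1, at 24, 18 and 18 counts in shRNF26 libraries and 49, 36 and 34 counts in shcontrol libraries. These 2 lists have medians close to that of the 43 genes, and no difference between lists was tested.

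Most core subunits of the anaphase-promoting complex did not pass, as was so for 8649 of the 14766 tested genes. Of its 14 subunits 2 rose and 2 fell, with 10 not passing and a median of 0.04. The shares, 14.3% higher and 14.3% lower, were near the 18.9% and 22.6% of all tested genes. ANAPC1 (0.31), its largest scaffold, and ANAPC2 (0.30), its cullin, rose and CDC26 (-0.30), a small stabilising subunit, fell, on the log2 scale. With total-count scaling 6 rose and 1 fell. In the greatwall and PP2A-B55 branch, whose phosphatase opposes CDK1, 1 of 9 rose (11.1%) and 3 fell (33.3%), with a median of -0.10. The falls were those of the catalytic subunits PPP2CB (-0.54) and PPP2CA (-0.27) and the B55 subunit PPP2R2A (-0.38). With total-count scaling the branch had 3 higher and 3 lower (median -0.00996). The SCF ligase genes had 2 of 7 higher (28.6%) and 1 lower (14.3%), with a median of 0.03. The F-box cyclin CCNF had a log2 fold change of 0.41, SKP2 of 0.21 and FBXW11 of -0.19. With total-count scaling 3 of the SCF genes were higher and 0 lower. DREAM pocket proteins and their partners had 2 of 8 higher and 2 lower (25% each, median 0.0049), with 1 higher when shRNF26 replicate 1 or shcontrol replicate 2 was left out. The pocket protein RBL2, which encodes p130 of the DREAM complex, rose by 0.39 on the log2 scale, and DYRK1A, the kinase that phosphorylates LIN52, fell by 0.21, with TFDP1, the dimer partner of E2F proteins, at -0.18. With total-count scaling this list had 3 higher and 0 lower (median 0.096), so neither fall passed there.

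Among genes of the contractile ring and of abscission, the shares that fell, 30% and 29.4%, were near the 22.6% of all tested genes, and the balance of calls and the medians depended on the scaling. Of 10 septin and RhoA genes 1 rose and 3 fell (median -0.06). With total-count scaling 3 rose and 1 fell (median 0.03), and without shRNF26 replicate 2, 1 rose and 1 fell, while 2 fell without shRNF26 replicate 3 or shcontrol replicate 2 or 3. MYH9, the main non-muscle myosin heavy chain, had 1156 ± 3.47 CPM in shRNF26 libraries and 1475 ± 69.1 CPM in shcontrol libraries, the formin DIAPH3 had a log2 fold change of -0.28, and the myosin MYH10 rose by 0.21 on that scale. Of 17 ESCRT-III abscission genes 0 rose and 5 fell (median -0.05), and with total-count scaling 2 rose and 5 fell (median 0.04, and 0.0020 with upper-quartile scaling). The falls included the ATPase VPS4B (-0.59) and the filament subunits CHMP4C (-0.47) and CHMP5 (-0.40). Of 12 checkpoint kinases and 14-3-3 proteins 3 rose and 6 fell (25% and 50%, median -0.19). SFN, the epithelial 14-3-3 sigma that holds CDK1 and cyclin B in the cytoplasm after DNA damage, had 205 ± 8.98 CPM in shRNF26 libraries and 401 ± 26.1 CPM in shcontrol libraries (log2 fold change -0.96, SE 0.048), the checkpoint kinase CHEK2 had 0.53 and YWHAH had -0.44. SFN is also one of the 10 squamous markers whose sum was lower in shRNF26 libraries. Those markers did not move as one: 5 fell, TP63 rose (log2 fold change 0.17) and 4, among them KRT5, did not pass.

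Replication licensing and S-phase genes went both ways, with 5 of 19 higher (26.3%), 7 lower (36.8%) and a median of -0.06. With total-count scaling the median turned to 0.03 (7 higher and 4 lower). The 3 largest changes that passed were falls. CCNE1, a cyclin that drives entry into S phase, had 62.8 ± 5.16 CPM in shRNF26 libraries and 89.8 ± 3.60 CPM in shcontrol libraries (log2 fold change -0.51, SE 0.059). CCNE2, its paralogue, had 53.6 ± 2.45 CPM in shRNF26 libraries and 74.7 ± 8.92 CPM in shcontrol libraries, and the licensing factor CDT1 had 63.5 ± 2.52 CPM in shRNF26 libraries and 83.2 ± 3.48 CPM in shcontrol libraries.

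**Figure D5:**
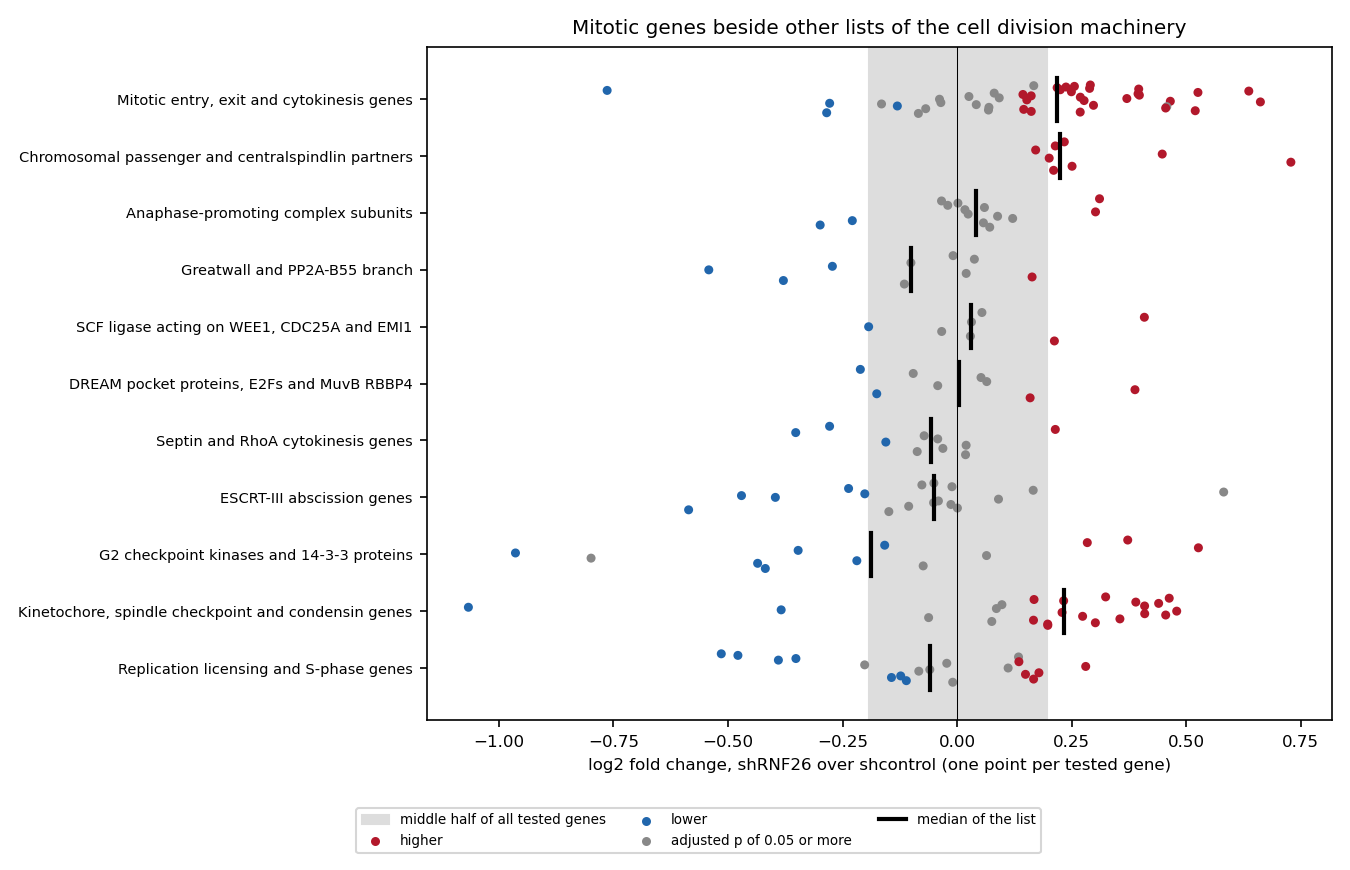
Log2 fold changes, shRNF26 over shcontrol, of the 43 mitotic genes (top row) and of 10 other lists of the division machinery, with 1 point per tested gene, coloured as higher (red), lower (blue) or not passing (grey). Black bars are medians and the grey band holds the middle part of all tested genes, from -0.19 to 0.20. The medians of the mitotic, passenger and kinetochore rows lie at 0.22 to 0.23 and those of the other rows between -0.19 and 0.04.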

How the data were processed

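RNA from 6 libraries was sequenced, 3 shRNF26 and 3 shcontrol, with group and replicate read from each title. The authors deposited whole-number read counts per Ensembl gene for all libraries, in a table that is named for FPKM but holds raw counts. The submitters' processing notes name build hg19. No source used here gives the aligner, counting program, annotation or strand setting. The 2 blank rows, with 0% of counts, were dropped. Of 61541 gene IDs, 42045 were matched to a symbol.

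From the counts, genes averaging at least 1 CPM (14766 genes, 99.7% of counts) were tested with edgeR 4.0.16 in R 4.3.3 (quasi-likelihood, TMM, two-sided, Benjamini-Hochberg over all tested genes, threshold 0.05). The biological coefficient of variation was 0.0507. SEs were derived from the log2 fold change and the F statistic. A count of 1 was worth 0.0545 to 0.0611 CPM. Replicates differed by more than sampling noise (chi-square per degree of freedom 2.24 to 4.69), so no library was treated as a deposited copy of another. This does not show that they were separate cultures. The test was also tried on simulated counts in which few genes changed, up or down at random. Such counts cannot show how scaling affected the calls here. DESeq2 1.42.0 and limma 3.58.1 served as alternatives, with other scalings, filters, a robust fit, a replicate block and each library left out.

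The genes and lists were chosen with earlier results of these data known, so counts and medians over a list are descriptions. Values in each library are given for CDK1, CCNB1, CDC20, PLK1, FOXM1 and MKI67 and for up to 3 called genes per role with the largest change. From each other list up to 3 called genes with the largest change were named. Promoters are shown for the 3 largest falls and the largest rise. Protein sequences were not analysed here. Exon lengths and overlaps came from GENCODE 29 and promoters from RefSeq, both on GRCh38, and no coordinates were joined to the counts.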

Additional observations from a re-analysis of the deposited data

How the results depend on the processing

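Under 15 alternatives the 43 genes gave 640 values, of which 589 kept their direction and their side of the threshold, 31 lost a call, 8 gained one and 12 changed sign, the last in genes that did not pass either way. With total-count scaling the median of all tested genes was 0.099 on the log2 scale, beside 0.0079 with TMM, 4451 genes were higher, and the 43 genes had a median of 0.31, with 30 higher and 2 lower. The median of the 43 lay 0.21 above that of all genes under both scalings. Upper-quartile scaling gave a median of 0.27, with 28 higher and 2 lower. The median was 0.23 at a minimum of 5 CPM and 0.22 with limma, DESeq2, RLE factors and the robust fit, and DESeq2 called 23 higher and 3 lower. Leaving out 1 library gave a median of 0.18 (without shRNF26 replicate 1 or shcontrol replicate 1) to 0.23, 22 to 25 higher and 3 to 5 lower among the 43 genes, and 2184 to 2572 higher and 2791 to 3232 lower over all genes. Signs turned for WEE1 (0.0064), LIN37 (0.055), FBXO5 (0.052) and PRC1 (0.022) with total-count scaling and for LIN37 (0.018) and FBXO5 (0.015) with upper-quartile scaling. With 1 library left out the ranges of the genes whose sign turned were -0.021 to 0.059 for CKS2, -0.049 to 0.13 for LIN9, -0.13 to 0.079 for LIN37, -0.074 to 0.00011 for FBXO5 and -0.27 to 0.053 for PRC1. The cause of these turns was not tested. Low counts limit NUSAP1, LIN37, PRC1 and ARHGAP11A most.

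Libraries that share a replicate number did not deviate together (correlations 0.011, -0.027 and 0.093 across genes), and not every library correlated best with its own number. A replicate block gave 26 higher and 4 lower among the 43 genes, a median of 0.22, and 2935 higher and 3479 lower over all genes. It changed no call among the 43.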
